A study of Homo sapiens with 6 samples.

Results

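MT-ATP6, MT-ATP8 and MT-CYB are the 3 mt-DNA-encoded ORFs that supply subunits to complex V and complex III of oxidative phosphorylation (OXPHOS). They were chosen by symbol, and all 3 were present among the 19330 genes counted by RNA sequencing, as were the other 10 of the 13 mt-DNA-encoded ORFs. The cells were K562, an established human chronic myelogenous leukemia line. They had been transduced with the lentiviral vector pLentiCRISPRv2, which delivers Cas9 with an sgRNA, and the sgRNA targeted either N6AMT1 (sgN6AMT1, 3 libraries) or the olfactory receptor genes named OR11A1 and OR2M49 in the labels (sgCtrl, 3 libraries). All 6 transductions went through puromycin selection for 48 h and were analysed on day 10 after infection, so both groups share the vector and the drug. The paper's methods name EGFP, or OR11A1 and OR2M4, as control targets, and neither they nor the labels say which sgRNA went into which transduction. No cloning step is described for these cells. RNA came from lysates cleared by centrifugation, and the kit named was a stranded total RNA kit with rRNA depletion, although the molecule is labelled polyA RNA.

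MT-ATP6 and MT-ATP8 encode the subunits a and A6L of the membrane part of ATP synthase, the rotary enzyme that makes ATP from the proton gradient. MT-CYB encodes cytochrome b, the central redox subunit of complex III, which passes electrons from ubiquinol to cytochrome c. Mammalian mt-DNA is transcribed into long polycistronic RNAs, and mature mt-mRNAs are released mainly where flanking tRNAs are cut out by the mitochondrial RNase P and RNase Z. MT-ATP8 and MT-ATP6 stay together on a bicistronic mRNA with overlapping reading frames, and the boundary between MT-ATP6 and MT-CO3 carries no tRNA.

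The layout of the 3 ORFs was read from the GRCh38 reference and its GENCODE v44 annotation, in which mt-DNA has 16569 bases. MT-ATP8 (ENSG00000228253.1) lies at chrM:8366-8572, MT-ATP6 (ENSG00000198899.2) at chrM:8527-9207 and MT-CYB (ENSG00000198727.2) at chrM:14747-15887, all on the plus strand. Each is a single coding exon. The sequences printed here are those of the reference and not of K562 mt-DNA, and they are shown because reads across these boundaries could be counted for either neighbour or for neither. In the first line the capitals mark the end of the lysine tRNA gene MT-TK, which is separated from MT-ATP8 by 1 base (chrM:8341-8389). In the second they mark the 46 bases that belong to both MT-ATP8 and MT-ATP6 (chrM:8503-8596). In the third they mark the stop codon of MT-ATP6 and the start codon of MT-CO3, which share 1 base (chrM:9183-9231). In the fourth they mark the first codon of MT-CYB (chrM:14723-14770), and in the last the threonine tRNA gene MT-TT, which follows MT-CYB directly (chrM:15864-15911).
MT-TK to MT-ATP8 boundary: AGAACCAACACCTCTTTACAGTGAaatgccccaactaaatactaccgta
MT-ATP8 and MT-ATP6 overlap: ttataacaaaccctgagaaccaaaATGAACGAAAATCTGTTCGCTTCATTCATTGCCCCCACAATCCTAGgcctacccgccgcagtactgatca
MT-ATP6 and MT-CO3 junction: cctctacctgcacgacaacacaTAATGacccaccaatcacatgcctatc
MT-CYB start: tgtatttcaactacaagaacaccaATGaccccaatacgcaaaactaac
MT-CYB to MT-TT boundary: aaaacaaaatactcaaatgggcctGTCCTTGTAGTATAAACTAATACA

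The capitals of the second line open with the start codon of MT-ATP6 and close with the stop codon of MT-ATP8, so the end of one frame is read within the other. The MT-ATP6 frame begins 161 bases into MT-ATP8, which puts it 2 bases out of register. MT-CYB stands alone between the glutamate tRNA gene MT-TE, on the minus strand, and MT-TT. The annotated length of MT-CYB is 1141 bases, and it ends in an incomplete stop codon. MT-ATP8 is 207 bases long and MT-ATP6 is 681. Of all 60-base windows, the read length used, that touch MT-ATP8, 39.5% also touch MT-ATP6. Of those touching MT-ATP6, 14.2% also touch MT-ATP8 and 8.11% touch MT-CO3. How the authors assigned such reads, and whether strand was used, is not given in the sources used here.

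The libraries held 742470 to 866894 counts in sgCtrl and 959319, 5526904 and 4062363 in sgN6AMT1 replicates 1 to 3. N6AMT1 itself, the targeted gene, had 6, 5 and 9 counts in sgCtrl (8.08, 5.77 and 10.4 cpm, counts scaled to the library total). In sgN6AMT1 it had 0, 18 and 16 counts (0, 3.26 and 3.94 cpm). The 0 in replicate 1 allows up to 3.13 cpm. The gene did not pass the filter on low counts and was not tested in the main fit. Fits that kept it did not call it (DESeq2 log2 fold change -1.51, adjusted p = 0.231, and edgeR with no filter -1.36, adjusted p = 0.137). No sgN6AMT1 library reached the lowest sgCtrl value, on these few counts. The normalized levels of 14.1% of tested genes were likewise lower in every sgN6AMT1 library. The 12 K562 markers, globin and erythroid genes, were detected in all 6 libraries. Their summed level was 11930 to 18700 cpm in sgCtrl and 18980 to 34320 cpm in sgN6AMT1. Most of each sum came from the globin genes HBG1 and HBG2, with for instance 3112 and 2966 counts in sgCtrl replicate 1. In sgN6AMT1 replicate 2 these had 58150 and 56047 counts. Of the 12 markers 4 differed in level, beside 9.85% of all tested genes. Of 5 markers of other blood cells LYZ and PTPRC were detected in all 6 libraries and MS4A1 in none (sums 74.1 to 111 and 106 to 128 cpm, 1 of the 2 tested differing). Of 5 markers of adherent lines EPCAM and COL1A1 were detected in all 6 libraries and CDKN2A in none (sums 146 to 173 and 96.3 to 157 cpm, 0 of the 1 tested differing). The part of these markers in the results was not tested. In the results that follow, sgN6AMT1 replicate 1 stood apart from replicates 2 and 3, and values without it are given where they move a difference by over 1.5 times or change a call.

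The first comparison asked how the RNA of the 3 ORFs differed between N6AMT1-depleted and control cells. All 3 were lower in sgN6AMT1, by 5.25-fold (MT-CYB) to 5.81-fold (MT-ATP8) in the edgeR quasi-likelihood fit over 8324 genes. Every sgN6AMT1 library lay below every sgCtrl library for each of the 3. Within sgN6AMT1 the 3 ORFs were close to the control level in no library, and they were several times lower in replicates 2 and 3 than in replicate 1. The levels that follow are normalized counts, that is cpm scaled by TMM factors, which correct for differences in composition and were 0.972 to 1.016 here.

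MT-ATP6 had 4234, 3378 and 2790 normalized counts in sgCtrl and 1422, 312.5 and 184.6 in sgN6AMT1. The lowest sgCtrl library was 1.96-fold above the highest sgN6AMT1 library. The means were 3468 ± 726 and 639.5 ± 680.2 (SD, n = 3 libraries each). The log2 fold change was -2.47 (SE 0.47, edgeR adjusted p = 0.00376 by Benjamini-Hochberg over the genes tested). Relative to the sgCtrl mean, sgN6AMT1 replicates 1 to 3 held 41.0%, 9.01% and 5.32% of the MT-ATP6 level. A lower level per cell and fewer cells carrying the RNA cannot be told apart in such bulk libraries.

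MT-ATP8, the shortest ORF of the 3, had 713.5, 557.2 and 475.1 normalized counts in sgCtrl and 277.1, 43.8 and 26.7 in sgN6AMT1. Its groups did not overlap either, with a 1.71-fold gap between the nearest libraries. The means were 582 ± 121 and 116 ± 140 (SD, n = 3 each), and the log2 fold change was -2.54 (SE 0.52, edgeR adjusted p = 0.00642). The 3 sgN6AMT1 libraries held 47.6%, 7.53% and 4.59% of the sgCtrl mean. MT-ATP8 thus had both the highest remaining level of the 3 ORFs in replicate 1 and the lowest in replicates 2 and 3. The raw counts behind it were 403 to 531 in sgCtrl and 263, 240 and 104 in sgN6AMT1, the smallest of the 3 ORFs.

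MT-CYB had 2915, 2508 and 1919 normalized counts in sgCtrl and 977.9, 280.0 and 173.0 in sgN6AMT1. The nearest libraries were 1.96-fold apart. The means were 2447 ± 501 and 477 ± 437 (SD, n = 3 each), and the log2 fold change was -2.39 (SE 0.40, edgeR adjusted p = 0.00164). The 3 sgN6AMT1 libraries held 39.96%, 11.4% and 7.07% of the sgCtrl mean. MT-CYB therefore kept more of its control level than either ATP synthase ORF in replicates 2 and 3.

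All 3 ORFs passed the threshold of 0.05, while 9.85% of all tested genes did so, 4.76% lower and 5.09% higher in sgN6AMT1. Their groups did not overlap, with sgN6AMT1 the lower, as was the case for 14.1% of tested genes (29.2% in either direction). Among the 8324 tested genes ordered from the lowest log2 fold change upward, MT-ATP8 stood at place 2, MT-ATP6 at place 4 and MT-CYB at place 5. With DESeq2, which called 6.54% of its genes (3.48% as lower), 1 of the 3 passed. MT-CYB had -2.38 on the log2 scale (DESeq2 adjusted p = 0.0297), MT-ATP6 -2.46 (0.0776) and MT-ATP8 -2.35 (0.134). The fold changes were alike in the 2 tools and the DESeq2 SEs, 0.748 to 0.983, were larger.

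**Figure D1:**
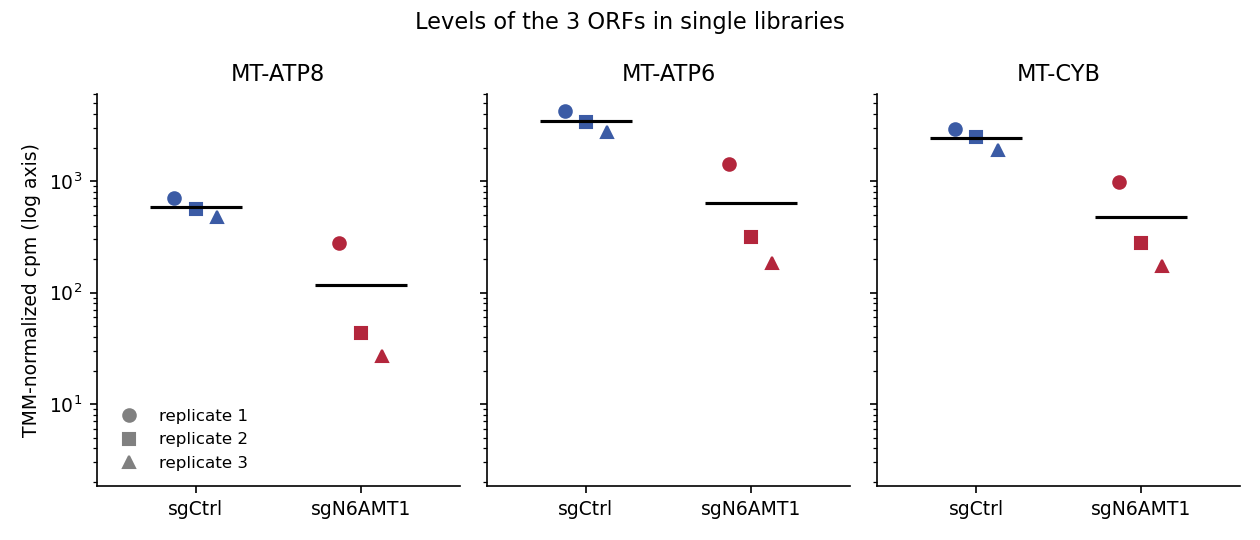
Normalized counts (TMM-normalized cpm, log axis) of MT-ATP6, MT-ATP8 and MT-CYB in each of the 3 sgCtrl and 3 sgN6AMT1 libraries, with marker shapes for replicates 1 to 3. For each ORF the sgCtrl libraries sit within 1.52-fold of each other, all above the sgN6AMT1 libraries, which spread over 5.65-fold (MT-CYB) to 10.4-fold (MT-ATP8).

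The spread within sgN6AMT1 was large, as the plot of levels by library shows. The coefficient of variation was 20.5% to 20.9% in sgCtrl for the 3 ORFs, and in sgN6AMT1 it was 106% for MT-ATP6, 121% for MT-ATP8 and 91.6% for MT-CYB. Without sgN6AMT1 replicate 1 the log2 fold changes were -3.80 (13.95-fold, edgeR adjusted p = 4.86e-11) for MT-ATP6, -4.03 (16.3-fold, 1.08e-11) for MT-ATP8 and -3.43 (10.8-fold, 9.67e-11) for MT-CYB. Leaving out replicate 2 or 3 instead gave -2.12 and -2.03 for MT-ATP6, -2.06 in both cases for MT-ATP8, and -2.11 and -1.99 for MT-CYB. All 3 ORFs stayed past the threshold in each of these fits. Replicates 2 and 3 were also the deepest libraries, with more counts than any other. After they were thinned to 858710 counts, within the range of the other 4 libraries, the log2 fold changes were -2.46, -2.32 and -2.35 for MT-ATP6, MT-ATP8 and MT-CYB. Replicate 1, with 0 counts of N6AMT1, kept the most MT-ATP6, MT-ATP8 and MT-CYB RNA. That 0 allows up to 3.13 cpm, close to the 3.26 and 3.94 cpm of replicates 2 and 3, so the N6AMT1 counts do not order the libraries reliably. Whether the ORF levels follow the loss of N6AMT1 was not tested.

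As a share of all counts, which needs no scaling model, the 3 ORFs together took 0.788%, 0.644% and 0.508% in sgCtrl and 0.265%, 0.0631% and 0.0368% in sgN6AMT1. These shares rest on 1495 to 5851 counts a library, and the 95% Wilson intervals were narrow, for instance 0.255% to 0.275% in sgN6AMT1 replicate 1 and 0.0350% to 0.0387% in replicate 3, for counting error only. The groups did not overlap. The means were 0.647% ± 0.140 and 0.122% ± 0.125 (SD, n = 3 each), a 5.32-fold difference with an exact two-sided permutation p = 0.1, the smallest that 3 libraries against 3 allow. MT-ATP6 gave more than any other of the 3 to this sum, with 0.273% to 0.424% of all counts in sgCtrl and 0.0177% to 0.141% in sgN6AMT1.

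Compared with the other ORFs, the 3 had some of the lowest log2 fold changes. Of the 13 ORFs 12 were called lower in sgN6AMT1, with MT-ND6 at -1.14 (edgeR adjusted p = 0.0655). MT-ND6 was called as well without sgN6AMT1 replicate 1 (-1.96, edgeR adjusted p = 1.36e-05), after thinning (-1.05, 0.0454) and with no filter on low counts (-1.15, 1.47e-09). Its groups overlapped, with sgN6AMT1 replicate 1 at 93.6% of the sgCtrl mean. The fit with no filter gave no weight to the spread of single genes, and its SE for MT-ND6 was 0.17 against 0.38 in the main fit. Its adjusted p-values, here and below, are therefore too small for genes that vary as much as these ORFs. The complex I ORFs MT-ND4L (-2.59) and MT-ND4 (-2.54) had log2 fold changes like those of MT-ATP8 and MT-ATP6. The cytochrome c oxidase ORFs MT-CO1 (-1.48) and MT-CO3 (-1.70) were nearer to 0 than any of the 3, while MT-CO2 was at -2.30. The comparison of each of the 3 with each other ORF was then made within libraries, where depth and scaling cancel.

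**Figure D2:**
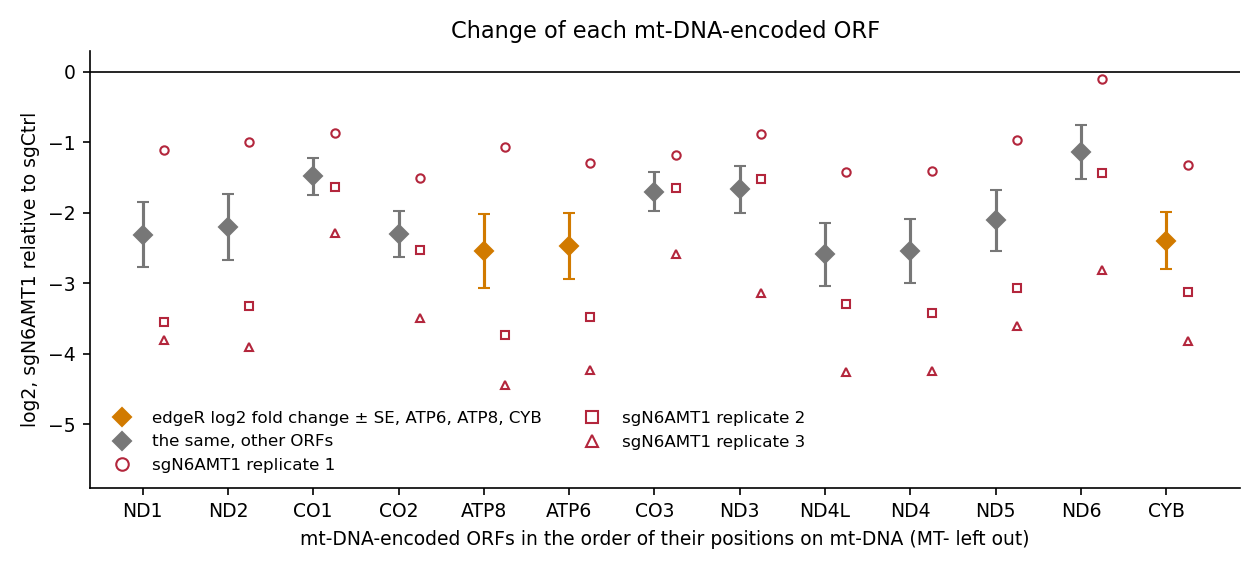
Log2 change of each of the 13 mt-DNA-encoded ORFs in sgN6AMT1 relative to sgCtrl, in the order of their positions on mt-DNA; diamonds are edgeR log2 fold changes with SE, and open markers are single sgN6AMT1 libraries relative to the sgCtrl mean. MT-ATP8 (-2.54), MT-ATP6 (-2.47) and MT-CYB (-2.39) lie lower than MT-CO1 (-1.48) and MT-CO3 (-1.70), and sgN6AMT1 replicate 1 lies above replicates 2 and 3.

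Of all counts on the 13 ORFs, MT-ATP6 took 8.06%, 7.70% and 8.52% in sgCtrl and 7.33%, 3.79% and 3.83% in sgN6AMT1. No sgN6AMT1 library reached the sgCtrl range, although replicate 1 came close. The means were 8.10% ± 0.410 and 4.99% ± 2.03 (SD, n = 3 each, exact permutation p = 0.1, the smallest possible). The share of MT-CYB was 5.55%, 5.72% and 5.86% in sgCtrl and 5.04%, 3.40% and 3.59% in sgN6AMT1, again without overlap (exact permutation p = 0.1, n = 3 each). The share of MT-ATP8 was 1.36%, 1.27% and 1.45% in sgCtrl and 1.43%, 0.532% and 0.555% in sgN6AMT1. Here replicate 1 lay inside the sgCtrl range, and the difference of -0.52 percentage points was not beyond the spread (exact permutation p = 0.3, n = 3 each; -0.82 without replicate 1). In replicates 2 and 3 the make-up of the ORF counts differed from the other 4 libraries for all 3 ORFs.

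**Figure D3:**
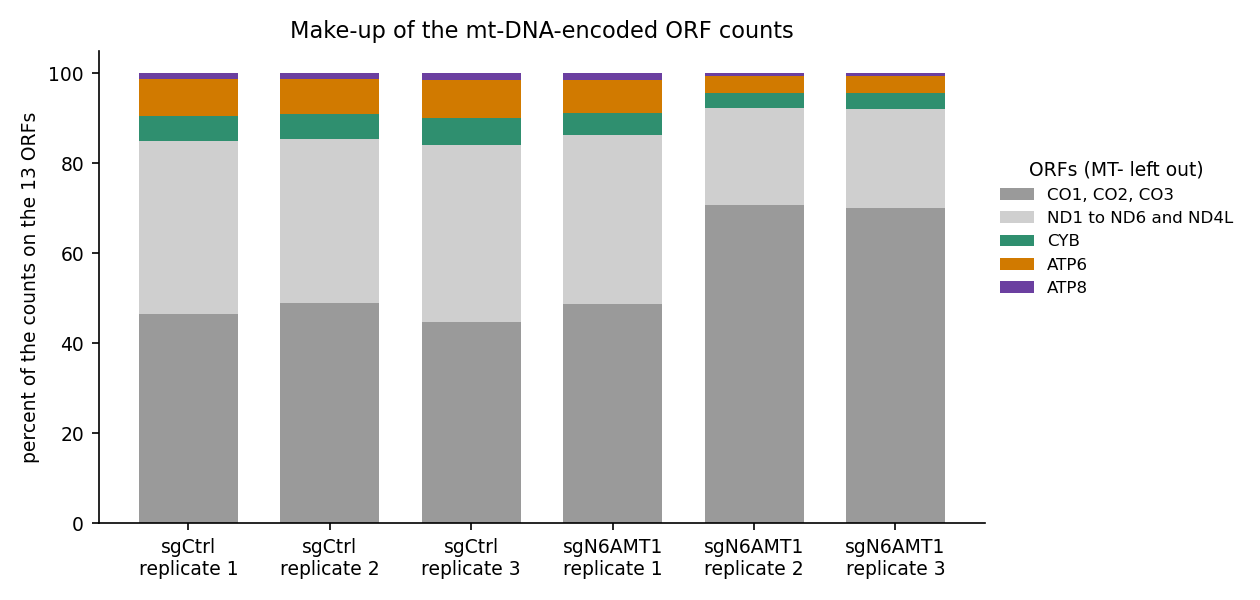
Percent of the counts on the 13 mt-DNA-encoded ORFs taken by MT-ATP6, MT-ATP8, MT-CYB and the other ORFs in each library, as stacked bars. The 3 ORFs together take 14.7% to 15.8% in sgCtrl, 13.8% in sgN6AMT1 replicate 1 and 7.73% and 7.98% in replicates 2 and 3.

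The complex IV ORFs took 44.8% to 49.0% of the ORF counts in sgCtrl, 48.8% in sgN6AMT1 replicate 1 and 70.8% and 70.0% in replicates 2 and 3, as the stacked bars show. With replicate 1 inside the sgCtrl range, this difference was not beyond the spread (exact permutation p = 0.2, n = 3 each). MT-CO1 and MT-CO3, whose log2 fold changes were nearer to 0 than that of MT-CO2, together took 34.9% to 38.7% in sgCtrl. In sgN6AMT1 replicates 1 to 3 these ORFs took 40.9%, 61.7% and 62.0%. Within libraries, MT-ATP6 was lower in every sgN6AMT1 library than in every sgCtrl library relative to 5 of the other 12 ORFs (MT-CO1, MT-ND2, MT-ND3, MT-ND5 and MT-ND6), and its groups overlapped for the other 7. MT-ATP8 was so relative to 4 (MT-CO1, MT-ND2, MT-ND5 and MT-ND6). MT-CYB was lower relative to 5 (MT-CO1, MT-CO3, MT-ND3, MT-ND5 and MT-ND6) and higher relative to 1, MT-ND4. For reference, the groups did not overlap in 47.4% of the 78 ratios that can be formed from 2 of the 13 ORFs. The mean log2 ratio to MT-CO1 differed by -1.41 for MT-ATP6, -1.49 for MT-ATP8 and -1.17 for MT-CYB. Against each other the 3 ORFs overlapped in every pairing.

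The next comparison was within the bicistronic pair. The count ratio of MT-ATP8 to MT-ATP6 was 0.169, 0.165 and 0.170 in sgCtrl and 0.195, 0.140 and 0.145 in sgN6AMT1. The sgN6AMT1 libraries fell on both sides of the sgCtrl libraries, replicate 1 above and replicates 2 and 3 below. The mean log2 ratio differed by -0.09 (SE 0.15), with an exact two-sided permutation p = 0.6 and the same value after Benjamini-Hochberg adjustment over the 6 ratios tested. A shift of the ratio was thus not detectable with 3 libraries a group, which does not show that it was constant.

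Counting error alone does not cover the spread of the ratio in sgN6AMT1. As a share of the counts of the pair, MT-ATP8 was 14.4% (95% Wilson interval 13.3% to 15.6%), 14.2% (13.03% to 15.4%) and 14.6% (13.3% to 15.9%) in sgCtrl. In sgN6AMT1 it was 16.3% (14.6% to 18.2%), 12.3% (10.9% to 13.8%) and 12.7% (10.6% to 15.1%). The chi-square per degree of freedom for a common share was 0.101 among the sgCtrl libraries and 6.58 among the sgN6AMT1 libraries. Between sgN6AMT1 replicates 2 and 3 alone it was 0.0679. Replicates 2 and 3 therefore had the same share within counting error and replicate 1 had a higher one. Without replicate 1 the log2 ratio was lower than in sgCtrl by a difference of -0.24, and without replicate 2 the difference was 0.0013, of the opposite sign.

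The sgCtrl ratio of 0.165 to 0.170 was below that of the lengths, 0.304. It was also below the ratio that uniform coverage by 60-base reads would give. That ratio is 0.36 where every touching read counts. It is 0.28 where reads touching another ORF are left out, those across MT-ATP6 and MT-CO3 included. So MT-ATP8 had fewer counts for its length than MT-ATP6, in RNA that carries both frames. Both window ratios include windows that begin upstream of MT-ATP8, in MT-TK, which an mRNA cut at that tRNA would lack. Without such windows the ratio to compare with would be lower, and it was not computed. A shortfall of MT-ATP8 beyond this end effect was therefore not shown.

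**Figure D4:**
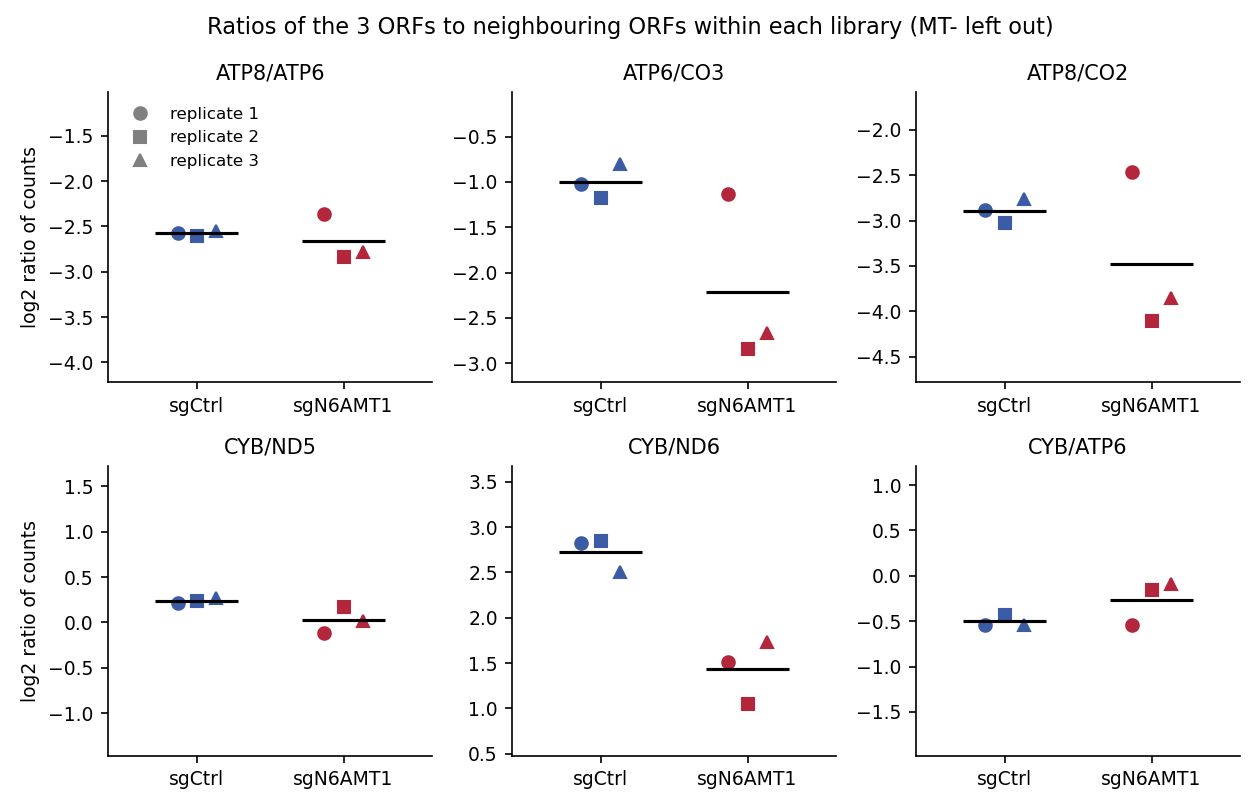
Log2 count ratios of MT-ATP6, MT-ATP8 and MT-CYB to each other and to neighbouring ORFs, 1 panel a ratio, with each sgCtrl and sgN6AMT1 library as a marker. The groups separate for CYB/ND5 and CYB/ND6 and overlap for ATP8/ATP6, ATP6/CO3, ATP8/CO2 and CYB/ATP6.

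Ratios to the adjacent ORFs were examined because the boundaries differ in whether a tRNA lies between. For MT-ATP6 and MT-CO3, the junction without a tRNA printed above, the ratio was 0.492, 0.442 and 0.572 in sgCtrl and 0.456, 0.140 and 0.157 in sgN6AMT1. Replicate 1 lay within the sgCtrl range and replicates 2 and 3 were far below it. The mean log2 difference was -1.21 (SE 0.55, exact permutation p = 0.2, adjusted 0.4, n = 3 each), and without replicate 1 it was -1.75. MT-ATP6 and MT-CO3 were thus not lowered to the same extent in 2 of the 3 sgN6AMT1 libraries. The groups overlapped over all 3, and the exact test could not have given a p under 0.1 with 3 libraries a group.

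For MT-ATP8 and MT-CO2, with MT-TK between them, the ratio was 0.135, 0.123 and 0.147 in sgCtrl and 0.181, 0.0581 and 0.0694 in sgN6AMT1. The groups overlapped, with replicate 1 above all of sgCtrl and the other libraries of sgN6AMT1 below it (log2 difference -0.58, SE 0.51, exact permutation p = 0.4, adjusted 0.48, n = 3 each). That difference was -1.09 without sgN6AMT1 replicate 1 and -0.27 without replicate 2. The ratio of MT-CYB to MT-ATP6, which lie on separate mRNAs, was 0.688 to 0.743 in sgCtrl and 0.688, 0.896 and 0.937 in sgN6AMT1. Its log2 difference of 0.24 (SE 0.14) was not beyond the spread (exact permutation p = 0.3, adjusted 0.45, n = 3 each). It was 0.38 without sgN6AMT1 replicate 1 and 0.15 without replicate 3.

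The ratios of MT-CYB to both of its neighbours had groups that did not overlap, as did 47.4% of all ORF ratios. MT-ND6 and MT-ND5 themselves did so against 9 and 8 of the 12 other ORFs, and MT-CYB against 6. Its ratio to MT-ND5, the upstream ORF on the same strand, was 1.16, 1.18 and 1.201 in sgCtrl and 0.919, 1.13 and 1.01 in sgN6AMT1, a mean log2 difference of -0.22 (SE 0.087). Its ratio to MT-ND6, which is encoded on the minus strand between MT-ND5 and MT-CYB, was 7.07, 7.20 and 5.69 in sgCtrl and 2.86, 2.07 and 3.32 in sgN6AMT1, a mean log2 difference of -1.30 (SE 0.23). In both cases no sgN6AMT1 library reached the sgCtrl range, with sgN6AMT1 replicate 1 included. The exact permutation p was 0.1 for each, the smallest possible with n = 3 libraries a group, and 0.3 after adjustment over the 6 ratios. Because the use of strand in counting is not known, reads from RNA antisense to MT-ND6 and from MT-ND6 cannot be told apart.

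Levels of different ORFs were compared per length, as normalized counts per kb. In sgCtrl MT-ATP6 was the fifth of the 13 ORFs with 5092 ± 1066 (SD, n = 3), MT-ATP8 stood at place 7 with 2811 ± 585 and MT-CYB at place 10 with 2145 ± 439. The order of the 3 was the same in each sgCtrl library. Neighbours in this order overlapped in level, although within each of the 3 sgCtrl libraries every ORF was above the next, with MT-ND4 (5253) just above MT-ATP6 and MT-ND2 (2704) just below MT-ATP8, except that MT-CYB was above MT-ND5 (1147) without overlap. In sgN6AMT1 MT-ATP6 was at place 4 (939.1 ± 998.9), MT-ATP8 at place 8 (559.9 ± 675.9) and MT-CYB at place 10 (418 ± 383), with SDs as large as the means, so that neighbours all overlapped. By library, MT-ATP6 was at places 4, 5 and 5 in sgN6AMT1, MT-CYB at 10, 10 and 9, and MT-ATP8 at 8, 12 and 10. The place of MT-ATP8 depends on the length used: without the bases it shares with MT-ATP6 it was at place 7 in sgCtrl and place 6 in sgN6AMT1.

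The genes most like each of the 3 over the 6 libraries were ranked by the root mean square difference of log2 levels, after each gene was centred on its sgCtrl mean. MT-ATP6 was closest to MT-ND4 (0.0563), then to MT-ND4L (0.136) and MT-ATP8 (0.149). MT-ATP8 was closest to MT-ATP6 (0.149), MT-ND4 (0.194) and MT-ND1 (0.251), and MT-CYB to MT-ND2 (0.173), MT-ND5 (0.177) and MT-ND4L (0.193). The ORF most distant from MT-ATP6 and MT-CYB was MT-ND6 (1.12 and 0.947), and for MT-ATP8 it was MT-CO1 (1.22). Among nuclear genes the closest to MT-ATP6 were ANP32B (0.697), HNRNPA3 (0.711) and HNRNPH3 (0.866), at places 9 to 11 of all tested genes. ANP32B and HNRNPA3 were also the nearest nuclear genes to MT-ATP8 and MT-CYB, and their own log2 fold changes were -2.12 (edgeR adjusted p = 0.00181) and -2.02 (9.39e-04). The points share library depth and the condition, so these distances are descriptions.

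Copies of mt-DNA in the nuclear genome, from which reads could be shared, were looked for in hg38. For MT-ATP6, 245 of its 622 windows of 60 bases (39.4%) had an identical nuclear copy, for MT-ATP8 3 of 148 (2.03%) and for MT-CYB 3 of 1082 (0.277%). The longest match of MT-ATP6 covered its whole length on chr1:633696-634376 at 98.5% identity, next to that of MT-ATP8 on chr1:633535-633741 at 97.6%. That of MT-CYB was on chr5:134923309-134924049, at 92.4% over 741 bases. Hits on chr8 were left out for every ORF when the longest match was picked, though not from the window counts, so a longer match there would not appear. How reads mapping to several places were counted is not given in the sources used here. The count of MT-ATP6 is therefore more uncertain than those of MT-ATP8 and MT-CYB. Among the other ORFs, such windows made up 44.1% of MT-CO1, 39.98% of MT-ND2, 24.41% of MT-CO3, 21.85% of MT-ND1 and 19.36% of MT-CO2. They made up 13.95% of MT-ND6, 2.34% of MT-ND5, 1.44% of MT-ND4 and 0% of MT-ND3 and MT-ND4L. Ratios of MT-ATP8 and MT-CYB to MT-CO1, MT-CO3 or MT-ND2, and the complex IV share, thus carry this uncertainty too. The part of shared reads in the differences, ratios and shares was not tested.

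The last comparison took the nuclear-encoded partners of these ORFs from lists of complex V and complex III genes and of factors that act on mt-mRNAs. Of 60 listed genes 57 were tested, and 1 (1.75%) passed the threshold, against 9.85% of all genes. The log2 fold changes had a median of 0.11, with 36 above and 21 below 0. For all tested genes the median was 0.0087, with 4228 above and 4096 below 0. At an unadjusted edgeR p under 0.05 there were 13 of the 57 and 2185 of the 8324. The 3 mt-DNA-encoded ORFs, at -2.39 to -2.54, thus fell without a change of this size in any gene of these lists.

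None of the 18 nuclear-encoded complex V subunits passed the edgeR threshold (2 at an unadjusted p under 0.05, 0 adjusted with DESeq2), and their median log2 fold change was 0.0081, with 9 above and 9 below 0. The 4 with the smallest p were the following. ATPIF1, the inhibitor that binds ATP synthase when it runs in reverse, had -0.48 (SE 0.18, edgeR adjusted p = 0.105), ATP5A1, the catalytic-core subunit alpha, had 0.42 (0.124), ATP5E, subunit epsilon, had 0.29 (0.232) and ATP5J, coupling factor 6, had -0.36 (0.243). ATPIF1 passed without sgN6AMT1 replicate 1 (-0.63, edgeR adjusted p = 0.0367) and with no filter (0.0490), and ATP5A1 passed without sgCtrl replicate 3 (0.62, 0.0304). Of 5 assembly factors of complex V 4 were tested and 0 passed (2 at an unadjusted p under 0.05, 0 with DESeq2). TMEM242 had 0.90 (edgeR adjusted p = 0.0844), ATPAF1, a chaperone of the beta subunit, -0.73 (0.0948), TMEM70, which acts on the ring of c subunits, 0.33 (0.327) and C7orf55 (FMC1) 0.16 (0.812).

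For complex III, where MT-CYB is the mt-DNA-encoded subunit, 8 of 9 nuclear-encoded subunits were at log2 fold changes above 0 (median 0.27). Of all 8324 tested genes 4228 were above 0. Of the 9 subunits 0 passed the threshold (2 at an unadjusted p under 0.05, 0 with DESeq2). CYC1, cytochrome c1, went from 238 ± 55.1 to 344 ± 61.8 normalized counts (SD, n = 3 each, log2 fold change 0.53, SE 0.18, edgeR adjusted p = 0.0637). It passed without sgN6AMT1 replicate 1 (0.62, edgeR adjusted p = 0.0362), without sgCtrl replicate 3 (0.69, 0.0414) and with no filter (0.0184). The core subunit UQCRC1 had 0.40 (0.116), UQCR10 0.33 (0.206) and UQCRB -0.32 (0.223). Of 8 assembly factors 6 were tested and 0 passed (3 at an unadjusted p under 0.05, 0 with DESeq2). TTC19 had -0.71 (edgeR adjusted p = 0.0581), BCS1L, which inserts the Rieske protein, 0.71 (0.109), LYRM7, the chaperone of that protein, -0.91 (0.154) and UQCC1 0.39 (0.418). LYRM7 passed without sgN6AMT1 replicate 2 (-1.61, edgeR adjusted p = 0.0403).

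Of the 20 factors that act on mt-mRNAs, 1 was called. FASTK, the founding member of a family of mitochondrial RNA-binding proteins, had 37.6, 27.7 and 25.9 normalized counts in sgCtrl and 42.2, 45.5 and 87.2 in sgN6AMT1, where it was higher in every library. Its log2 fold change was 0.98 (SE 0.30, edgeR adjusted p = 0.0422), and DESeq2 did not call it (0.94, adjusted p = 0.0681). Without sgN6AMT1 replicate 3 the log2 fold change was 0.55 (edgeR adjusted p = 0.246). Without sgCtrl replicate 1, 2 or 3 it was 1.15, 0.91 and 0.88 (edgeR adjusted p = 0.0701, 0.170 and 0.127). The call was lost in each of these fits, and among them the fold change was lowest without sgN6AMT1 replicate 3. The fits without sgCtrl replicates 1, 2 and 3 also called fewer genes over all, 301, 220 and 752 against 820. HSD17B10, a subunit of RNase P, had 0.49 (0.0606), TBRG4, a FASTK relative, 0.49 (0.0936) and PNPT1, the mitochondrial polynucleotide phosphorylase, -0.41 (0.0982). HSD17B10 passed without sgCtrl replicate 3 (edgeR adjusted p = 0.0478) and with at least 10 counts in every library (0.0481), and TBRG4 without sgN6AMT1 replicate 1 (0.0466) and with no filter (0.0464). The other enzymes that cut at the tRNA boundaries printed above were looked at after their values were seen. TRMT10C and KIAA0391 (PRORP), of RNase P, had 0.13 (edgeR adjusted p = 0.792) and 0.02 (0.972), and ELAC2, the RNase Z, had -0.04 (0.931). FASTKD5, which is needed for mt-RNA boundaries without a tRNA such as that of MT-ATP6 and MT-CO3, had -0.50 (0.192), also looked at afterwards.

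**Figure D5:**
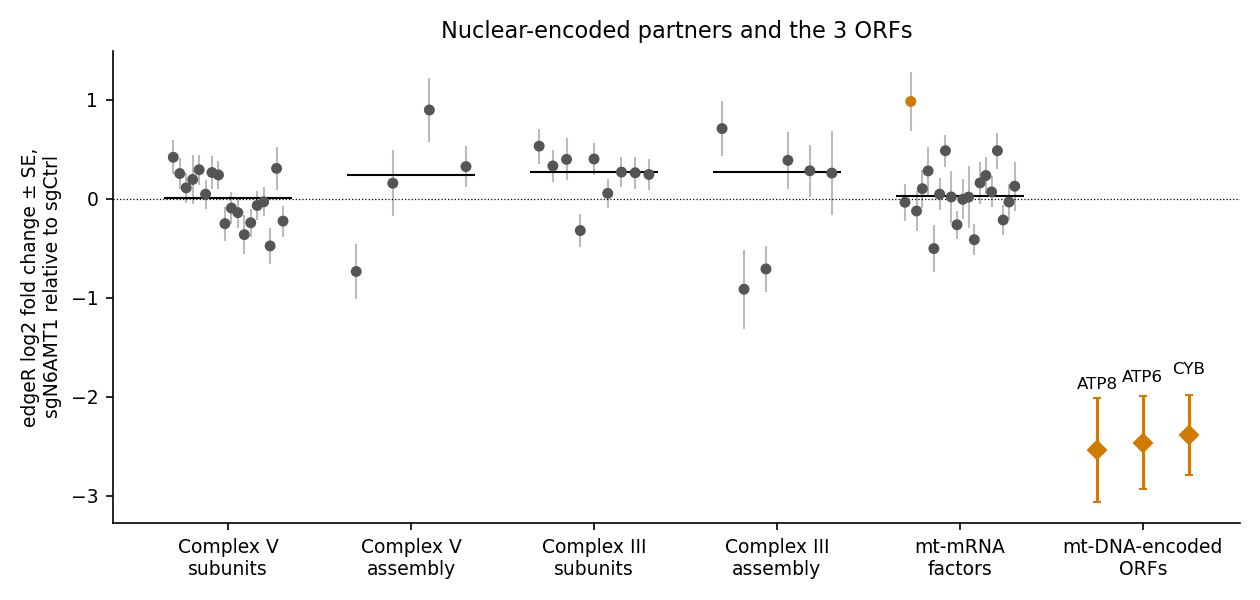
EdgeR log2 fold changes with SE of the tested nuclear-encoded genes of complex V, complex III and the mt-mRNA factors, by list, beside the mt-DNA-encoded MT-ATP6, MT-ATP8 and MT-CYB. The nuclear-encoded genes lie between -0.91 (LYRM7) and 0.98 (FASTK), and the 3 ORFs lie at -2.39 to -2.54.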

How the data were processed

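RNA-Seq libraries of K562 cells, 3 sgCtrl and 3 sgN6AMT1, were grouped by their labels. The authors trimmed 60 nt reads with cutadapt, mapped them with HISAT2 to GRCh38 and counted them on genes of release 84, and they deposited raw counts for 19330 genes without normalization. The counting tool and the handling of overlapping or multi-mapping reads are not given in the sources used here. The members and the gene lists were chosen with earlier results of these data known.

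EdgeR 4.0.16 in R 4.3.3 was used for filtering (filterByExpr, which left 8324 genes), TMM scaling and the quasi-likelihood test of sgN6AMT1 against sgCtrl, in a model of the 6 libraries that held the condition alone. The common biological coefficient of variation was 0.16. Its p-values were adjusted over all tested genes (Benjamini-Hochberg). Replicates are separate transductions. For ratios and shares per library the exact permutation test was two-sided (scipy 1.17.1), and intervals are 95% Wilson intervals, which cover counting error only. A count of 0 was read as allowing 3 counts. Nuclear copies were found with BLAST+ 2.17.0 at 90% identity or more.

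The genes named are the 3 ORFs, the other 10 ORFs, N6AMT1, up to 4 genes per nuclear list with the smallest adjusted p, and per ORF the 3 mt-DNA-encoded and 3 nuclear genes most alike in log2 level (prior count 2). ORF boundaries and sequences come from GENCODE v44 and hg38, where all 13 ORFs lie at the same positions as in RefSeq GRCh38.p14. Alternatives to these choices were DESeq2 1.42.0, total counts, RLE size factors, normalization without mt-DNA-encoded genes, no filter, at least 10 counts in every library, a replicate block, thinning, ORF length without shared bases and each library left out in turn. The fit was tested on simulated counts, of which 8299 genes passed the filter. It recovered 92 of 92 genes given a log2 change of 2 and 66 of 90 given a change of 1. There were 5 false calls among 8117. These totals were not split by the spread of the genes. The reliability of calls for genes that vary like the 3 ORFs in sgN6AMT1 was therefore not tested. Their coefficients of variation there were 106% (MT-ATP6), 121% (MT-ATP8) and 91.6% (MT-CYB).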

Additional observations from a re-analysis of the deposited data

How the results depend on the processing

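The log2 fold changes of the 3 ORFs kept their direction in all 42 recomputed values and their call in 40, and both lost calls came from the DESeq2 fit. The 14 ratios and shares kept their sign in 119 of 120 recomputed values, and since their exact p cannot reach 0.05, their side of the threshold carries no information. Of 70 recomputed counts of genes called, 25 moved by over 1.5 times or went to or from 0, and 2 of 6 ranks moved. With DESeq2, MT-ATP6 (-2.46, adjusted p = 0.0776) and MT-ATP8 (-2.35, adjusted p = 0.134) did not pass, and 1 of the 3 ORFs and 5 of the 13 were called, against 12 of 13 in edgeR, where leaving out a library gave 12 to 13 and thinning gave 13. The cause was not tested. Across the edgeR alternatives the highest adjusted p was 0.0229 for MT-ATP6, 0.0361 for MT-ATP8 and 0.0130 for MT-CYB. With each library left out in turn, the edgeR log2 fold change ranged from -3.80 to -2.03 for MT-ATP6, -4.03 to -2.06 for MT-ATP8 and -3.43 to -1.99 for MT-CYB. The MT-ATP8/MT-ATP6 log2 ratio then ranged from -0.24 to 0.0013, the latter without sgN6AMT1 replicate 2.

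Nuclear list genes called numbered 1, against 0 with DESeq2, 4 without a filter, 2 with at least 10 counts in every library and 0 to 4 with each library left out in turn. Over all genes 820 were called, against 1201 without a filter, 301 and 220 without sgCtrl replicates 1 and 2 and 495 and 538 without sgN6AMT1 replicates 2 and 3. Without bases shared between ORFs, MT-ATP6 was at place 4 per kb in sgCtrl (place 5 with them), and MT-ATP8 at place 6 in sgN6AMT1 (place 8 with them) and at place 7 in sgCtrl either way.

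Libraries of the 2 groups share replicate numbers, but deviations of same-numbered libraries from their group means correlated at -0.00052, 0.0827 and 0.19 only, and sgCtrl replicates 1 and 2 correlated best with another number, so the numbers were not taken to pair them. With the replicate block, the log2 fold changes were -2.99, -3.03 and -2.75 for MT-ATP6, MT-ATP8 and MT-CYB, MT-ND6 was called as well (-1.42, edgeR adjusted p = 4.27e-04), 1195 genes were called over all and 8 of the nuclear lists (5 higher, 3 lower), ATPIF1, ATP5A1 and CYC1 among them.

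MT-ATP8 rests on 104 counts in sgN6AMT1 replicate 3, which limits its ratios, and 3 libraries a group cannot bring an exact p under 0.1.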
